A study of Mus musculus with 20 samples.

Results

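The genes described here are 10 genes of the CCN family and the YAP-TEAD pathway, chosen by symbol from the 14700 gene symbols over the 4 deposited tables: Ccn1, Ccn2, Amotl2, Ajuba, Lats1, Lats2, Yap1, Wwtr1, Tead1 and Tead2. Each of the 10 had a value in all 20 libraries. RNA was sequenced from primary cortical neurons of mouse embryos at embryonic day 15, cultured for 7 days and then treated for 12 h. N_WT and N_KO were kept in normoxia at 5% CO2 in medium with 25 mM glucose and 0.2 mM pyruvate, and OGD_WT and OGD_KO under oxygen and glucose deprivation (OGD) at 1% O2 and 5% CO2 in medium without these additions. WT is wild type and KO is a knockout of the circular RNA ciRS-7 (listed as Cdr1as), a brain RNA known for binding the microRNA miR-7, and the labels give the strain C57BL/6N-Cdr1asem1Nikr for both genotypes. Each group had 5 libraries, and the N and OGD libraries of one number (WT1 to WT5, KO1 to KO5) carry the same batch label (1, 2, 3.1, 3.2 or 3.3). On GRCm38, by GENCODE M21, the genes lie on the plus strand at chr10:24595442-24598683 (Ccn2), chr10:7681214-7716460 (Lats1), chr9:102716672-102733418 (Amotl2), chr7:112679318-112906807 (Tead1) and chr7:45215753-45233644 (Tead2). On the minus strand they lie at chr3:145646976-145649981 (Ccn1), chr3:57455649-57575910 (Wwtr1), chr9:7931999-8004596 (Yap1), chr14:54567472-54577558 (Ajuba) and chr14:57689662-57758388 (Lats2).

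The Hippo pathway is a kinase cascade that holds back the coactivators YAP (Yap1) and TAZ (Wwtr1). The kinases LATS1 and LATS2 phosphorylate both coactivators, which then stay in the cytoplasm or are degraded. Without this phosphorylation YAP and TAZ enter the nucleus and bind TEAD transcription factors, and Ccn1, Ccn2 and Amotl2 are among the genes most often used as readouts of that activity. CCN1 and CCN2 are secreted matrix proteins that signal through integrins, while AMOTL2 and AJUBA bind pathway proteins and modulate it. In the brain YAP and TAZ are known mainly from neural progenitors and astrocytes, and mature neurons are known to have little YAP.

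The promoters of these genes are shown first because TEAD factors are known to bind the sequence GGAATG. RefSeq promoters (GRCm38.p6), 300 bases that run from 250 before to 50 after the start, were matched for 8 of the 10 genes, and Ccn2 and Tead1 were not matched. These genes have 10 promoters in the table, with 2 each for Lats2 and Wwtr1, those of Wwtr1 overlapping. GGAATG, on either strand, occurred in 7 of the 10 promoters (Ccn1, Amotl2, Ajuba, Yap1, the first of Lats2 and both of Wwtr1) and in 14.7% of the 32851 promoters of the table. The 2 Wwtr1 promoters hold the same copy, which is counted for both. Ajuba held 2 copies, at 186 and 164 bases before its start. The copies lay 103 bases before the start in Ccn1, 65 in Amotl2, 141 in Yap1 and 136 in the first promoter of Wwtr1. In the first promoter of Lats2 the copy was at base 5 after its start. A match is a description of letters and not a measured binding site. The 200 bases before the start are printed 5′ to 3′ on the gene's strand, with GGAATG or its reverse complement in capitals, for 4 genes that rose under OGD and for Lats2, which was not called. The Lats2 stretch has no capitals because its copy lies after the start. Tead2, which rose, had no copy in its promoter and is not printed, so the printed stretches are no comparison of genes that rose with genes that did not. They lie on the minus strand at chr3:145649986-145650185 for Ccn1, chr14:54577662-54577861 for Ajuba, chr9:8004597-8004796 for Yap1, chr3:57575911-57576110 for Wwtr1 and chr14:57746124-57746323 for Lats2 (the first promoter for Wwtr1 and Lats2).
Ccn1: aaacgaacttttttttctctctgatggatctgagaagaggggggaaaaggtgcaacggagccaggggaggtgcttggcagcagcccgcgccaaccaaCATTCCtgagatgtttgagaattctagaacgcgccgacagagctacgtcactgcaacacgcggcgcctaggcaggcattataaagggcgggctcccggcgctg
Ajuba: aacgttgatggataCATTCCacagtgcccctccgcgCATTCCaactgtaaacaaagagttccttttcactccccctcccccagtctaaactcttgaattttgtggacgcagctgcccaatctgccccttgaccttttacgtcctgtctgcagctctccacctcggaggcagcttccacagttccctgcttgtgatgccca
Yap1: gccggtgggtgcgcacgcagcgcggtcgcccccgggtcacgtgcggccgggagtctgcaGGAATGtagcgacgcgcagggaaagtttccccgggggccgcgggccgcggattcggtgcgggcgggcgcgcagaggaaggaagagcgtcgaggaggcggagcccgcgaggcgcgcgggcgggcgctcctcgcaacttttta
Wwtr1: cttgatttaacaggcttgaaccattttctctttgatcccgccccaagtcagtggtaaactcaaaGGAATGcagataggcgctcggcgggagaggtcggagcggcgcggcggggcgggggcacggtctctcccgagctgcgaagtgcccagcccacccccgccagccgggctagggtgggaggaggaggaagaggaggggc
Lats2: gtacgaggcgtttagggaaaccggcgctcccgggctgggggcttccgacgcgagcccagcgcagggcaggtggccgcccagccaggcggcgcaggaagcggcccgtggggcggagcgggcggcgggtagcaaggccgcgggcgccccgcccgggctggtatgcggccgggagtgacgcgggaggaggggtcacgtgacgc

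Other motifs were searched on both strands in the same promoters of the 8 genes. The hypoxia response core ACGTG was found in 3 of the 10 promoters (Lats1, Yap1 and the first of Lats2) and in 19.6% of all promoters. The AP-1 motif TGANTCA (7.8% of all promoters), the cyclic AMP response element TGACGTCA (1.8%) and the CArG box (1.6%) were found in none of the 10.

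Values are log2 CPM (counts scaled per library within each comparison, on a log2 scale). The scaling was not by read total alone, so the same reads can have different values. The 190 Ccn1 reads of N_KO replicate 2 were at 3.74 in the comparison with OGD_KO and at 3.88 in that with N_WT. Differences are log2 fold changes from limma fits across all genes of a comparison's own table, and a gene was called where its p, adjusted by Benjamini-Hochberg, was under 0.05. The reads recovered per library numbered 7071505 to 13168705 in N_WT, 9217018 to 16658615 in OGD_WT, 7580741 to 14762865 in N_KO and 7494946 to 14523461 in OGD_KO. Cdr1as, the targeted gene, had 700 to 1365 reads in N_WT libraries and 5 to 16 in N_KO libraries, and 545 to 1912 in OGD_WT and 2 to 14 in OGD_KO. Mitochondrial genes took 13.3% to 17.0% of reads in N_WT, 17.4% to 28.5% in OGD_WT, 14.1% to 20.9% in N_KO and 22.7% to 37.5% in OGD_KO. OGD_KO replicate 5 stood apart, with the lowest median correlation to its own group (0.957) and the highest share of reads in its top 10 genes (43.2%). Replicate 5 also had the lowest such correlation within N_WT (0.971), OGD_WT (0.965) and N_KO (0.97). The markers of neurons were measured for 10 of 10 genes, and markers of astrocytes (9 of 10), radial glia and progenitors (9 of 9), proliferation (10 of 10) and the oligodendrocyte lineage (7 of 8) were measured too.

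Under OGD, 8 of the 10 genes rose in wild type, where 44.3% of 14235 genes were called, 21.6% higher and 22.8% lower. The same 8 rose in the knockout, where 40.9% of 14375 genes were called, 21.0% higher and 19.9% lower. They were both CCN genes, both coactivators, both TEAD genes, Amotl2 and Ajuba, and the 2 kinases Lats1 and Lats2 were called in neither genotype. The median log2 fold change of the 10 genes was 1.04 in wild type, against -0.03 over all genes, and 0.91 in the knockout, against 0.0 over all genes. The groups did not overlap for 6 genes in wild type (13.9% of all genes were higher without overlap) and for 5 in the knockout (13.4%). Ccn1 was the farthest from the others, and Wwtr1 came next in both genotypes.

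**Figure D1:**
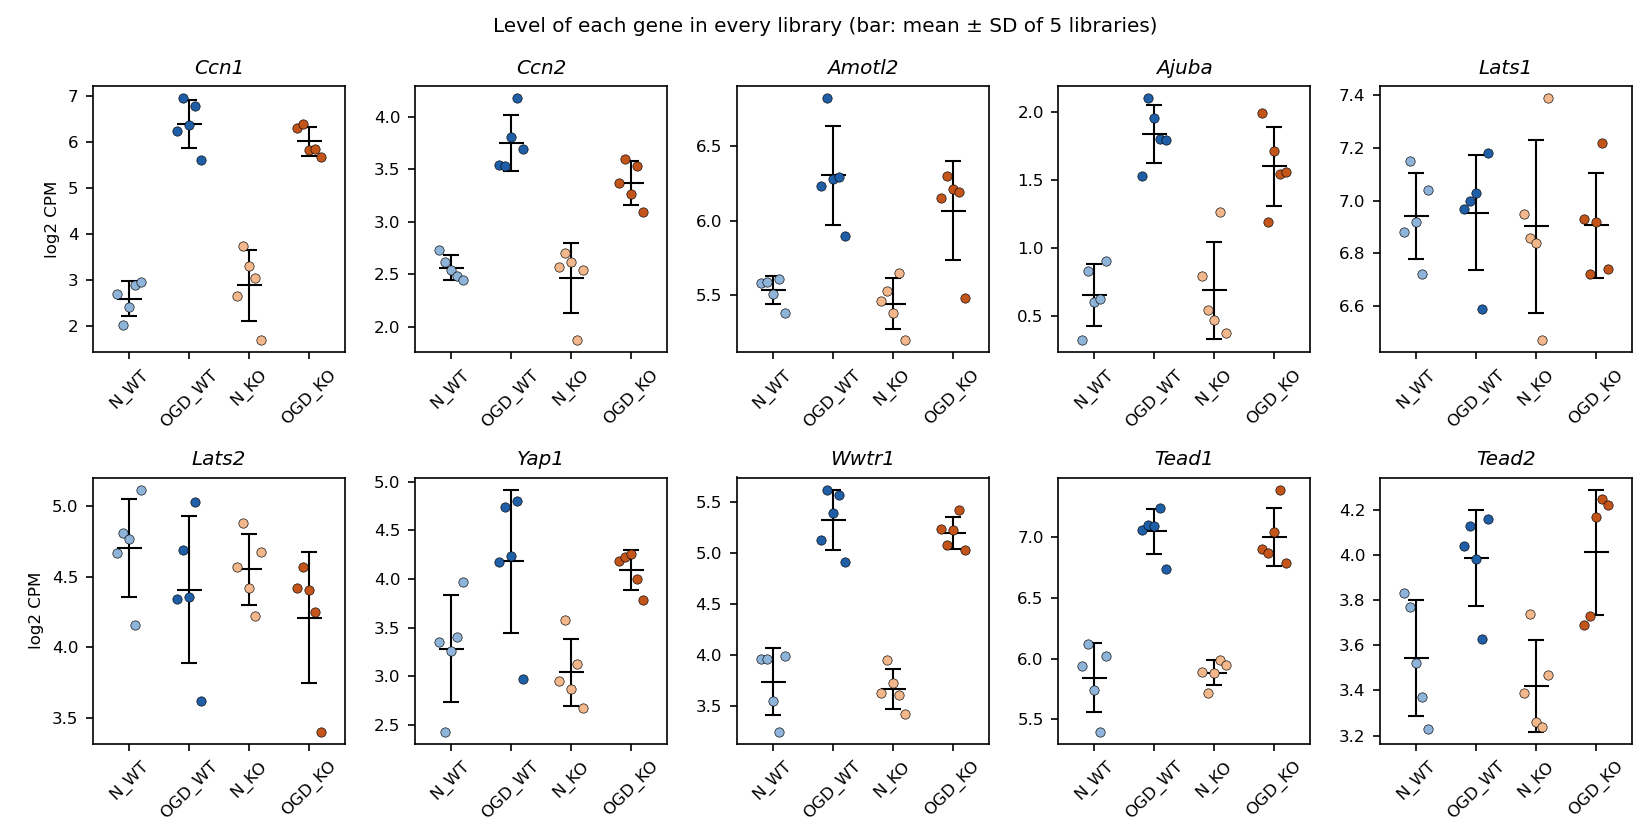
Level of each of the 10 genes (vertical axis, log2 CPM, scaled separately per gene) in every library of N_WT, OGD_WT, N_KO and OGD_KO (horizontal axis), with horizontal bars at the mean and whiskers of ± SD over 5 libraries. Ccn1 lay between 1.7 and 3.74 in the normoxic libraries and between 5.61 and 6.96 in the OGD libraries, while Lats1 covered about the same range in each group.

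Ccn1, which encodes a secreted protein of the extracellular matrix, was at 2.7, 2.03, 2.41, 2.9 and 2.96 log2 CPM in N_WT replicates 1 to 5 and at 6.24, 6.96, 6.37, 6.79 and 5.61 in OGD_WT. The lowest OGD_WT library was thus far above the highest N_WT library. The mean level was 2.6 ± 0.38 in N_WT and 6.39 ± 0.53 in OGD_WT (SD, n = 5 each). The difference was 3.79 on the log2 scale (SE 0.22, limma adjusted p = 3.54e-11), or 13.9-fold with a 95% interval from 10.2 to 19.0, and ranked 5 among the 14235 genes. In the knockout, Ccn1 was at 2.65, 3.74, 3.31, 3.04 and 1.7 log2 CPM in N_KO and at 6.32, 6.4, 5.84, 5.86 and 5.69 in OGD_KO. These groups did not overlap either, and N_KO spread more widely than N_WT. The knockout difference was 3.13 (SE 0.27, limma adjusted p = 1.09e-07), or 8.77-fold with a 95% interval from 5.92 to 13.0, rank 15 of 14375. Between libraries of one number, Ccn1 was higher under OGD in 5 of 5 wild-type pairs, by 2.65 to 4.92, and in 5 of 5 knockout pairs, by 2.53 to 3.99. Its reads numbered 49 to 87 per N_WT library and 477 to 1314 per OGD_WT library.

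Ccn2, the connective tissue growth factor gene, was at 2.73, 2.62, 2.54, 2.48 and 2.44 log2 CPM in N_WT and at 3.54, 3.53, 3.81, 4.18 and 3.69 in OGD_WT. No OGD_WT library was within the N_WT range. The level rose from 2.56 ± 0.12 to 3.75 ± 0.27 (SD, n = 5 each), a log2 difference of 1.19 (SE 0.16, limma adjusted p = 4.08e-06), or 2.28-fold. N_KO libraries were at 2.57, 2.7, 2.62, 1.87 and 2.54, and OGD_KO libraries at 3.37, 3.6, 3.26, 3.53 and 3.09. Replicate 4 of N_KO was low, and the groups were apart with or without it. The log2 difference in the knockout was 0.91 (SE 0.17, limma adjusted p = 0.000415). Ccn2 shares exon bases with Gm15270 on the opposite strand, and whether reads were counted by strand is not given in the sources used here. Of the other 4 CCN genes, Ccn3, which encodes a matrix protein of the same family, was the one analysed here. It fell, by 1.32 in wild type (adjusted p = 9.24e-06) and by 1.27 in the knockout (adjusted p = 1.89e-06).

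Wwtr1, which encodes the coactivator TAZ, was at 3.96, 3.96, 3.55, 3.25 and 3.99 log2 CPM in N_WT and at 5.13, 5.62, 5.4, 5.57 and 4.92 in OGD_WT. The 2 groups were about a log2 unit apart at their nearest libraries. The difference was 1.59 (SE 0.18, limma adjusted p = 4.73e-07), or 3.0-fold, in wild type. In the knockout the libraries were at 3.63, 3.95, 3.73, 3.61 and 3.42 in N_KO and at 5.24, 5.08, 5.23, 5.43 and 5.03 in OGD_KO, again apart. Its knockout difference was 1.53 (SE 0.14, limma adjusted p = 2.68e-07), or 2.89-fold.

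Yap1, which encodes YAP, was at 3.35, 2.43, 3.26, 3.4 and 3.97 log2 CPM in N_WT and at 4.17, 4.74, 4.24, 4.8 and 2.97 in OGD_WT. These groups overlapped, since OGD_WT replicate 5 was below 4 of the N_WT libraries. The difference was 0.9 (SE 0.28, limma adjusted p = 0.0123), and 4 of 5 numbered pairs were higher under OGD while the pair WT5 was lower, by -1.0. With the replicate number as a block the adjusted p was 0.066, and it was 0.0613, 0.0622 and 0.0617 without OGD_WT replicate 2, OGD_WT replicate 4 and N_WT replicate 2. Without OGD_WT replicate 5 the difference was 1.21 (adjusted p = 1.27e-05). In the knockout the N_KO libraries were at 2.95, 3.58, 2.87, 3.13 and 2.67 and the OGD_KO libraries at 4.19, 4.23, 4.26, 4.0 and 3.78. All OGD_KO libraries were above all N_KO libraries, with a difference of 1.05 (SE 0.17, limma adjusted p = 9.5e-05). Yap1 shares exon bases with Gm20416 on the opposite strand.

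Tead1, a transcription factor that YAP and TAZ bind, was at 5.94, 6.12, 5.74, 5.4 and 6.02 log2 CPM in N_WT and at 7.06, 7.1, 7.09, 7.24 and 6.74 in OGD_WT. N_KO libraries were at 5.89, 5.72, 5.88, 5.99 and 5.95, and OGD_KO libraries at 6.9, 6.87, 7.04, 7.39 and 6.79. In both genotypes every OGD library was above every normoxic one. The log2 difference was 1.2 (SE 0.16, limma adjusted p = 3.37e-06) in wild type and 1.11 (SE 0.14, limma adjusted p = 1.03e-05) in the knockout, or 2.3-fold and 2.16-fold.

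Tead2, the TEAD gene known from early neural progenitors, changed less and its groups overlapped. Its levels were 3.23 to 3.83 in N_WT and 3.63 to 4.16 in OGD_WT, and 3.24 to 3.74 in N_KO and 3.69 to 4.25 in OGD_KO. The log2 difference was 0.45 (SE 0.16, limma adjusted p = 0.0266) in wild type and 0.59 (SE 0.16, limma adjusted p = 0.00634) in the knockout. In wild type the call was lost without OGD_WT replicate 1, 2 or 3 or N_WT replicate 3, 4 or 5, with adjusted p between 0.0523 and 0.0676. In the knockout libraries of batch 3 (KO2, KO4 and KO5) the difference was 0.58 with an adjusted p of 0.187. Tead2 shares exon bases with Cd37 on the opposite strand. Of 6 other TEAD partners listed (Tead and Vgll genes), 2 had values. Tead3 rose by 0.56 in wild type and by 0.85 in the knockout, and Vgll4, a repressor of TEAD activity, rose by 0.48 in wild type (adjusted p = 0.0106) and had a difference of 0.36 in the knockout (adjusted p = 0.0836). In wild type 1 of the 2 was called without OGD_WT replicate 3 or N_WT replicate 3, and in the knockout 2 were called without OGD_KO replicate 4.

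Amotl2, an angiomotin family gene that is both a YAP target and a binder of YAP, was at 5.58, 5.59, 5.51, 5.61 and 5.38 log2 CPM in N_WT and at 6.23, 6.82, 6.28, 6.29 and 5.9 in OGD_WT. The 2 wild-type groups did not overlap, and the difference was 0.77 (SE 0.16, limma adjusted p = 0.000471). In the knockout it was at 5.2 to 5.65 in N_KO and at 6.15, 6.3, 6.21, 6.19 and 5.48 in OGD_KO. Replicate 5 of OGD_KO, the library that stood apart, was the one inside the N_KO range. The knockout difference was 0.62 (SE 0.16, limma adjusted p = 0.00495), 0.77 without that library (adjusted p = 0.000128), and 0.53 within batch 3 (adjusted p = 0.254).

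Ajuba, which encodes a LIM protein known to bind LATS kinases, had the lowest counts of the 10 genes, with 11 to 20 reads per N_WT library and 24 to 41 per OGD_WT library. Its levels were 0.32, 0.83, 0.6, 0.62 and 0.9 log2 CPM in N_WT and 1.53, 2.1, 1.95, 1.8 and 1.79 in OGD_WT, without overlap. The wild-type difference was 1.18 (SE 0.18, limma adjusted p = 2.77e-05). In the knockout, N_KO libraries were at 0.79, 0.54, 0.47, 1.26 and 0.37 and OGD_KO libraries at 1.99, 1.19, 1.71, 1.54 and 1.56. The groups overlapped by 1 library each, N_KO replicate 4 and OGD_KO replicate 2. The knockout difference was 0.91 (SE 0.2, limma adjusted p = 0.00161), and 0.71 within batch 3 (adjusted p = 0.123).

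The 2 kinase genes were not called. Lats1 was at 6.72 to 7.15 log2 CPM in N_WT and 6.59 to 7.18 in OGD_WT, and at 6.47 to 7.39 in N_KO and 6.72 to 7.22 in OGD_KO. Its log2 difference was 0.01 in wild type (95% interval -0.29 to 0.31) and 0.0 in the knockout (-0.35 to 0.36), so a fold over 1.28 lay outside both intervals. Lats2 was at 4.67, 4.81, 4.77, 4.16 and 5.12 in N_WT and at 4.34, 4.69, 4.36, 5.03 and 3.62 in OGD_WT. Its libraries overlapped widely, and replicate 5 was lowest under OGD in both genotypes. The log2 difference of Lats2 was -0.3 in wild type (95% interval -0.74 to 0.14, limma adjusted p = 0.263) and -0.35 in the knockout (-0.76 to 0.06, limma adjusted p = 0.166), and its size rested on single libraries. It was -0.1 in wild type without OGD_WT replicate 5, -0.46 without OGD_WT replicate 4, and -0.14 in the knockout without OGD_KO replicate 5. Lats2 shares exon bases with Gm49361 on its own strand.

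**Figure D2:**
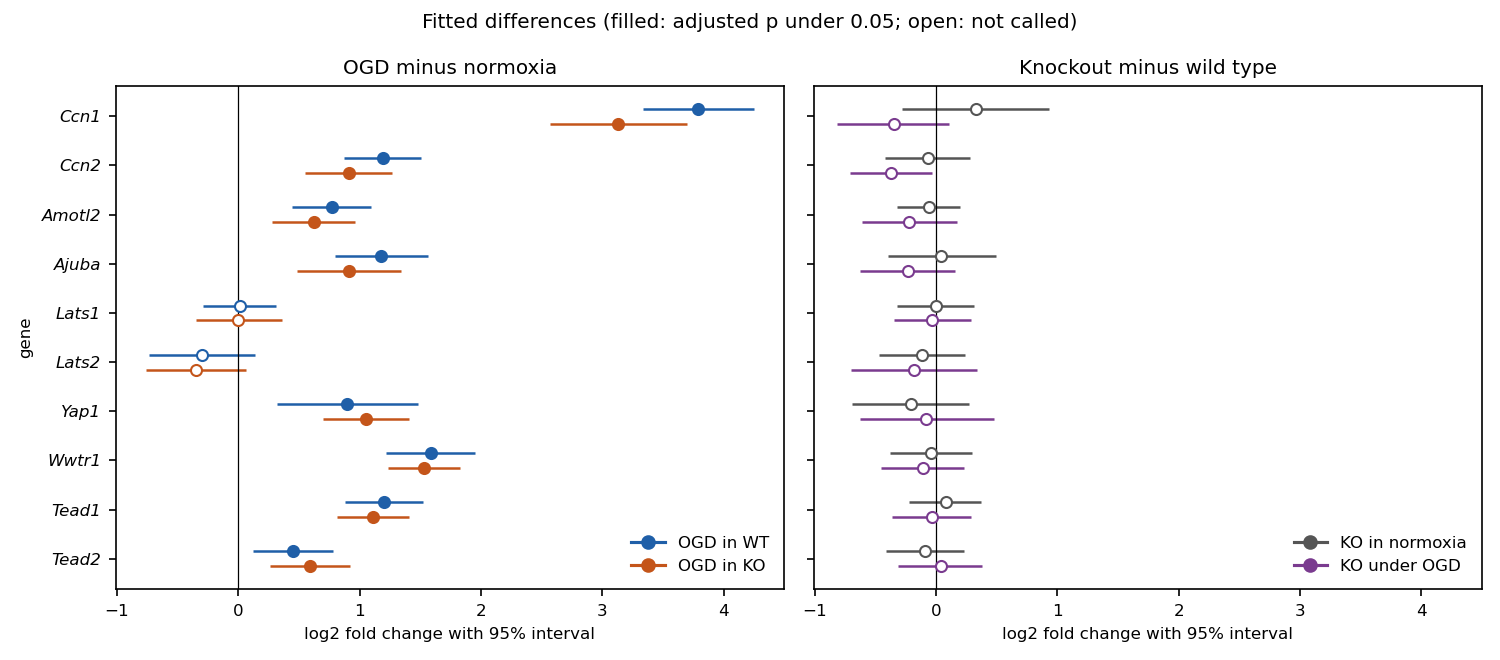
Log2 fold change (horizontal axis) with its 95% interval for each of the 10 genes (vertical axis), OGD minus normoxia on the left (blue, wild type; orange, knockout) and knockout minus wild type on the right (grey, normoxia; purple, OGD), with filled points for an adjusted p under 0.05. The left panel has 8 filled genes in each genotype, with Ccn1 at 3.79 and 3.13, and the right panel has none.

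Per length of annotated exons, Ccn1 moved from place 5 to place 1 of the 10 levels under OGD in wild type and from 4 to 1 in the knockout, and Lats2 from 4 to 8 and from 5 to 8. In N_WT the highest level was that of Lats1, 16.7 ± 1.84 CPM per kb (SD, n = 5), followed by Amotl2 at 7.25 ± 0.461 and Tead1 at 4.22 ± 0.767. From Tead1 down over Lats2 (3.73 ± 0.866), Ccn1 (2.85 ± 0.762), Wwtr1 (2.74 ± 0.596), Tead2 (2.35 ± 0.421) and Ccn2 (1.9 ± 0.16), neighbours in the order overlapped between libraries. Yap1 (1.06 ± 0.395) and Ajuba (0.319 ± 0.0658) were each below the gene before them in every library. In OGD_WT the highest level was that of Ccn1, 43.7 ± 14.9 CPM per kb, and its lowest library (23.7) was above the highest of Lats1 (19.6), whose mean was 17.1 ± 2.37. From Lats1 over Amotl2 (12.8 ± 3.14), Tead1 (9.77 ± 1.23) and Wwtr1 (8.47 ± 1.73) to Ccn2 (4.63 ± 0.959) neighbours overlapped, and Ccn2 was above Tead2 (3.26 ± 0.45) in every library. Lats2 (3.15 ± 1.09), Yap1 (2.11 ± 0.88) and Ajuba (0.872 ± 0.143) followed, each overlapping the gene before it. In the knockout Lats1 was again first in normoxia and Ccn1 under OGD, with Lats1 at 17.0 ± 3.93 and Ccn1 at 3.93 ± 1.91 in N_KO and Ccn1 at 33.0 ± 7.23 and Lats1 at 16.7 ± 2.54 in OGD_KO.

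Genes of CCN receptors were mostly called higher under OGD. Of the 10 listed receptor genes 7 had values in the wild-type comparison, and 6 were called higher and 0 lower, with a median of 0.92. In the knockout 8 had values, and 6 were called higher and 0 lower, with a median of 0.88. Among all genes 21.6% were called higher in wild type and 21.0% in the knockout, with medians of -0.03 and 0.0. Sdc4, a heparan sulfate syndecan, rose by 1.52 in wild type (adjusted p = 2.28e-05) and by 1.55 in the knockout (adjusted p = 2.58e-06). The integrin subunit genes Itga6, Itgb1 and Itga5 rose by 1.2, 0.97 and 0.92 in wild type and by 1.15, 0.98 and 1.18 in the knockout. Lrp1, an endocytic receptor that binds CCN proteins, was not called, at 0.25 in both genotypes (adjusted p = 0.175 and 0.228).

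Of the remaining Hippo pathway genes, 24 were measured, and 6 were called higher and 3 lower in wild type (median -0.13), and 4 higher and 2 lower in the knockout (median -0.1). That is 9 of 24 and 6 of 24 called, beside 44.3% and 40.9% of all genes, so the list had no larger share of calls than the genes at large. Rassf1, a scaffold gene that binds the Hippo kinases, rose by 1.38 in wild type (adjusted p = 7.42e-07) and by 1.18 in the knockout (adjusted p = 3.01e-05). The kinase gene Map4k4, whose product can activate LATS, rose by 0.91 and 0.85, and Taok3, another upstream kinase gene, fell by 0.71 and 0.7. Ptpn14, a phosphatase gene that is a YAP target and also binds YAP, rose by 0.55 and 0.54, and it is counted among the YAP-TEAD targets too. These counts depended on the setting. From the values as deposited 15 genes were called in wild type and 11 in the knockout. With the replicate number as a block 4 genes were called in wild type, and 4 in batch 3 alone. The wild-type count was 5, 5 and 4 without OGD_WT replicate 3, N_WT replicate 1 and N_WT replicate 3, and the knockout count was 3 without OGD_KO replicate 1, OGD_KO replicate 3 or N_KO replicate 3 and 1 in batch 3 alone.

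Of 18 other genes listed as YAP-TEAD targets 15 had values, and 6 were called higher and 3 lower in wild type (median 0.35), and 8 higher and 2 lower in the knockout (median 0.45). Among all genes 21.6% were called higher and 22.8% lower in wild type, and 21.0% and 19.9% in the knockout, so the 3 of 15 called lower in wild type are near the background share. F3, the tissue factor gene, rose by 1.31 in wild type (adjusted p = 3.84e-05) and by 1.35 in the knockout (adjusted p = 2e-05). Ccdc80, a matrix protein gene, rose by 0.74 and 0.69, and Gadd45a, a growth arrest gene, by 0.64 and 1.02. Myof, which encodes the membrane protein myoferlin, fell by 0.66 in wild type (adjusted p = 0.00912) and had a difference of -0.44 in the knockout (adjusted p = 0.0835). Arhgef17 was called lower in both genotypes, at -0.6 and -0.48 (limma adjusted p = 0.00214 and 0.0158). Crim1 was called lower in wild type, at -0.41, and was at -0.35 in the knockout (limma adjusted p = 0.0444 and 0.0866). Dock5 was at -0.52 in wild type and was called lower in the knockout, at -1.29 (limma adjusted p = 0.0599 and 4.69e-05). In batch 3 alone 5 of these genes were called in wild type and 3 in the knockout. With the replicate number as a block 5 were called in the knockout, and 5 and 6 without OGD_KO replicate 3 and N_KO replicate 3.

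**Figure D3:**
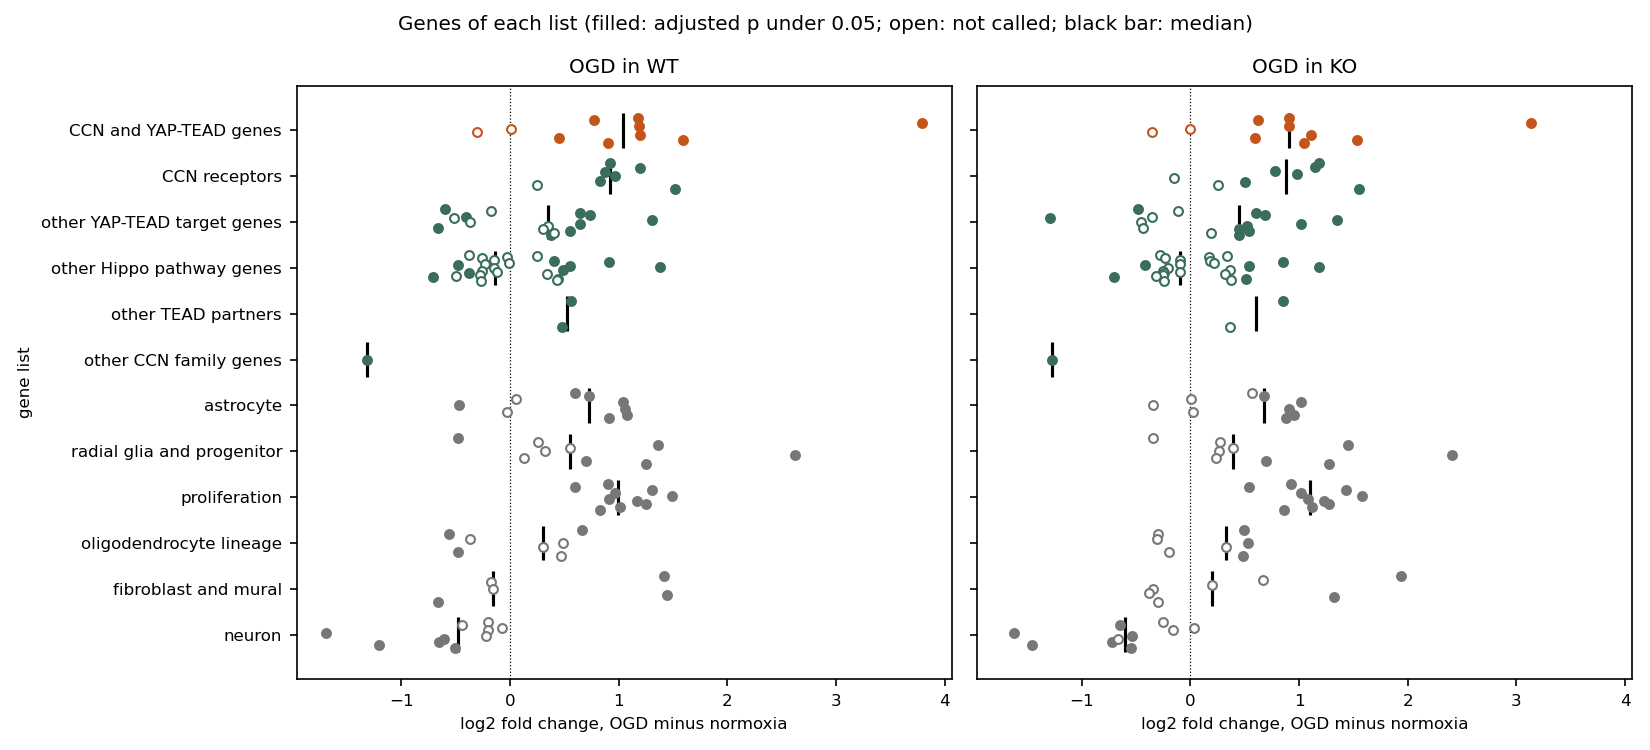
Log2 fold change, OGD minus normoxia (horizontal axis), of each gene of the lists named on the vertical axis, in wild type (left) and in the knockout (right), with filled points for an adjusted p under 0.05, open points for genes not called and a black bar at the list's median. The medians of the 10 CCN and YAP-TEAD genes (1.04 and 0.91) and of the CCN receptors (0.92 and 0.88) lay to the right of 0, that of the other Hippo genes (-0.13 and -0.1) near 0 and that of the neuron markers (-0.48 and -0.6) to the left.

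Markers of several other cell types were called under OGD as well. Among all genes 21.6% were called higher and 22.8% lower in wild type, and 21.0% and 19.9% in the knockout. Summed astrocyte markers were at 1150 to 1430 CPM in N_WT, 1880 to 2340 in OGD_WT, 911 to 1610 in N_KO and 1540 to 2400 in OGD_KO. Of the 9 with values 6 were called higher and 1, Gfap, lower in wild type, and 5 higher in the knockout. Gja1 and Slc1a3, which astrocytes express strongly, rose by 1.06 and 1.08 in wild type and by 0.91 and 0.95 in the knockout, while Aqp4 was at 0.05 and 0.01 and not called. The proliferation markers were called higher for 10 of 10 genes in both genotypes, and their sum was 500 to 666 CPM in N_WT, 949 to 1700 in OGD_WT, 487 to 791 in N_KO and 1170 to 1530 in OGD_KO. Radial glia and progenitor markers were called higher for 4 of 9 genes in both genotypes and lower for 1 gene, Eomes, in wild type. In the knockout, 4 of the 9 were called higher and 0 lower, beside 21.0% and 19.9% of all genes. The sum of the radial glia and progenitor markers was 677 to 1040 CPM in N_WT, 966 to 1730 in OGD_WT, 706 to 1100 in N_KO and 1220 to 1560 in OGD_KO.

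Neuron markers were called lower for 5 of 10 genes in wild type and 6 of 10 in the knockout and higher for none. Among all genes 22.8% were called lower in wild type and 19.9% in the knockout. The neuron marker sums were 4670 to 6150 CPM in N_WT, 2960 to 5760 in OGD_WT, 5350 to 5520 in N_KO and 3170 to 4620 in OGD_KO. The 4 fibroblast and mural markers with values in every library summed to 46.8 to 72.9 CPM in N_WT, 147 to 169 in OGD_WT, 57.0 to 72.0 in N_KO and 105 to 163 in OGD_KO, and most of each sum was Fn1, which astrocytes also make. In wild type 5 of these markers had values, and 2 were called higher and 1 lower. In the knockout 7 had values, and 2 were called higher and 0 lower. Among all genes 21.6% and 21.0% were called higher. Fn1 rose by 1.44 and 1.32. Acta2, at a mean of -0.49 log2 CPM in N_WT, rose by 1.42 and 1.94 (limma adjusted p = 6.01e-05 and 1.57e-06). Pdgfrb fell by 0.66 in wild type (limma adjusted p = 0.00984) and had a difference of -0.3 in the knockout. Dcn (-0.16 and -0.38) and Col6a1 (-0.18 and -0.34) were not called. Oligodendrocyte lineage markers were called higher for 1 and lower for 2 of 7 genes in wild type, beside 21.6% and 22.8% of all genes. In the knockout 3 of these 7 were called higher and 0 lower, beside 21.0% and 19.9% of all genes. Their sum was 276 to 342 CPM in N_WT, 321 to 473 in OGD_WT, 206 to 391 in N_KO and 274 to 395 in OGD_KO. None of the 8 microglia markers and 1 of the 8 endothelial markers (Kdr, called higher in both genotypes) had values that could be analysed here. The part of these cell types in the rise of the CCN and YAP-TEAD genes was not tested. In bulk RNA a change in the number of cells of a type and a change in RNA per cell cannot be told apart.

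**Figure D4:**
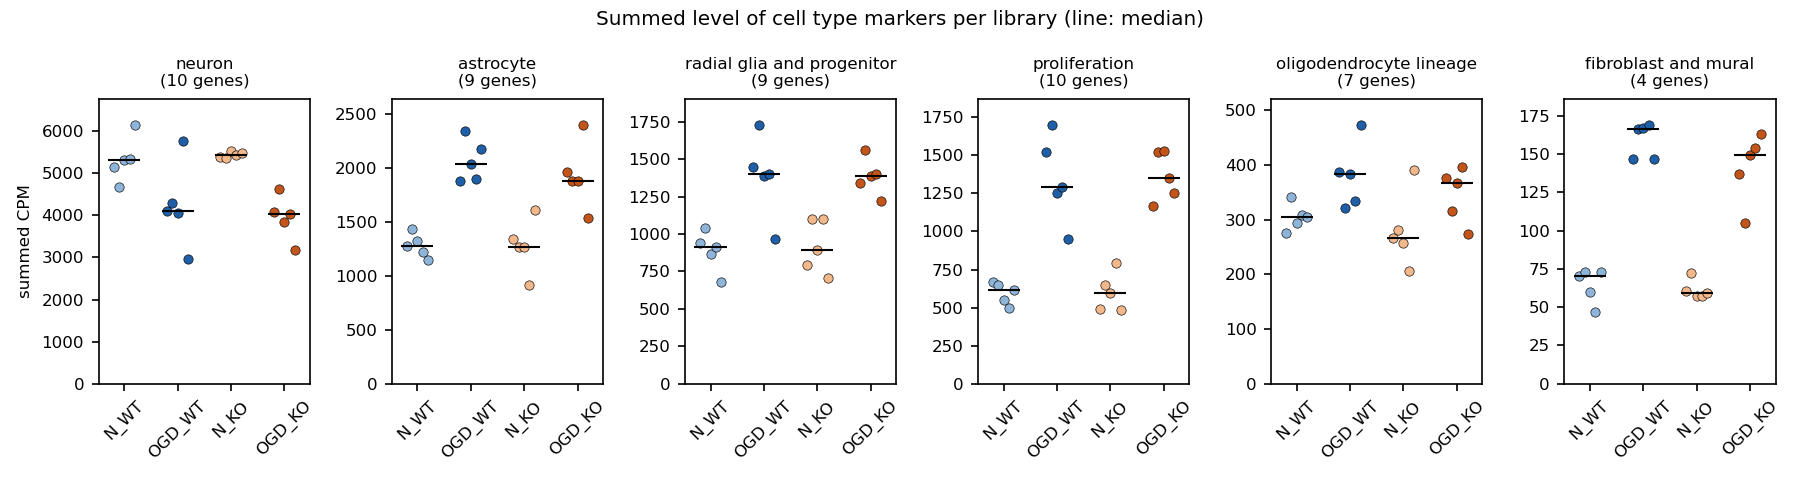
Summed level of the marker genes of 6 lists (vertical axis, CPM, starting at 0 and scaled separately per list) in each library of N_WT, OGD_WT, N_KO and OGD_KO (horizontal axis), with a line at the group's median. The proliferation sum was 487 to 791 CPM in normoxic libraries and 949 to 1700 in OGD libraries, and neuron markers were lower at the median under OGD.

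The comparisons between genotypes found no call among the 10 genes. In normoxia 5 of 14152 genes were called (0.0353%) and 256 had an unadjusted p under 0.05 (1.81%), and 0 of the 10 genes was among either in the limma fit. Ccn1 was at 3.02 ± 0.79 log2 CPM in N_KO and 2.7 ± 0.39 in N_WT (SD, n = 5 each, on the scale of that comparison's table), a difference of 0.33 with a 95% interval from -0.28 to 0.93. Over the alternatives this difference ran from -0.11 to 0.63, and from 0.11 (without N_KO replicate 2) to 0.63 (without N_KO replicate 5) with 1 library left out. Ccn2 differed by -0.07 (-0.42 to 0.28), Yap1 by -0.21 (-0.69 to 0.27), Wwtr1 by -0.04 (-0.38 to 0.3), Tead1 by 0.08 (-0.22 to 0.37) and Tead2 by -0.09 (-0.41 to 0.23). Amotl2 differed by -0.06 (-0.32 to 0.2), Ajuba by 0.04 (-0.4 to 0.49), Lats1 by -0.0 (-0.32 to 0.31) and Lats2 by -0.12 (-0.47 to 0.24).

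Under OGD 4 of 14185 genes were called (0.0282%) and 253 had an unadjusted p under 0.05 (1.78%), with 0 of the 10 genes called. Ccn1 was at 5.89 ± 0.31 log2 CPM in OGD_KO and 6.24 ± 0.53 in OGD_WT (SD, n = 5 each), a difference of -0.35 with a 95% interval from -0.82 to 0.11. With 1 library left out it ran from -0.55 (without OGD_WT replicate 5) to -0.22 (without OGD_WT replicate 2). Ccn2 was at 3.23 ± 0.2 in OGD_KO and 3.59 ± 0.28 in OGD_WT, a difference of -0.37 (-0.71 to -0.03). Ccn2 alone of the 10 genes had an unadjusted p under 0.05 here, and its adjusted p was 1 in the limma fit. The other differences were -0.22 for Amotl2 (-0.61 to 0.17), -0.23 for Ajuba (-0.63 to 0.16), -0.08 for Yap1 (-0.63 to 0.48), -0.11 for Wwtr1 (-0.45 to 0.23), -0.03 for Tead1 (-0.36 to 0.29), 0.04 for Tead2 (-0.31 to 0.38), -0.03 for Lats1 (-0.35 to 0.29) and -0.18 for Lats2 (-0.7 to 0.34). These intervals leave room for differences of either sign, other than that of Ccn2, and a missed threshold does not show equal levels. None of the other listed pathway genes with values was called in either comparison.

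The interaction of genotype and treatment, over 20 libraries, tests the OGD response of one genotype against that of the other. It called 0 of 13688 genes (0.0%) with limma, and 99 genes (0.723%) had an unadjusted p under 0.05, with none of the 10 among them. If no gene differed, a share of about 0.05 would be expected under that threshold. The shares here and between the genotypes (1.81% in normoxia, 1.78% under OGD) were below it, and missing calls do not show equal responses. For Ccn1 the response in the knockout minus that in wild type was -0.69 on the log2 scale (SE 0.45, 95% interval -1.6 to 0.22, limma adjusted p = 1). For Ccn2 the difference of responses was -0.3 (-0.82 to 0.22), for Yap1 0.13 (-0.7 to 0.96), for Wwtr1 -0.08 (-0.59 to 0.43) and for Tead1 -0.11 (-0.58 to 0.35). For Amotl2, Ajuba, Tead2, Lats1 and Lats2 it was -0.17, -0.3, 0.12, -0.03 and -0.07. Leaving out 1 numbered pair moved the Ccn1 value to between -0.99 (without WT5) and -0.4 (without WT2).

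The genes nearest to Ccn1 over the 20 libraries were sought among 12697 genes, by the smallest root mean square difference after each gene's mean was subtracted. This measure weighs the size of a change, so a rise of similar size in the genes found follows from how they were chosen. They were Slc2a1 (0.38 log2 units), Nr4a1 (0.45), Vegfa (0.46), Hk2 (0.46) and Bhlhe40 (0.46), which rose under OGD by 3.95, 3.39, 3.29, 3.72 and 3.09 in wild type. For Ccn2 they were Abtb2 (0.15), Acadl (0.19), Rlbp1 (0.22), Plat (0.22) and Cpt1a (0.22), which rose by 0.98, 1.11, 0.98, 1.02 and 1.25 in wild type. The nearest of the other 9 genes to Ccn1 was Wwtr1 at rank 102, and Ccn2 was at rank 431. Nearest to Ccn2 was Tead1 at rank 89, while Ccn1, which rose more, was at rank 12542. Lats2, which was not called, was nearer to Ccn2, at rank 8814, so these ranks do not compare direction alone. Ccn1 and Ccn2 both rose under OGD, with log2 differences of 3.79 and 1.19 in wild type and 3.13 and 0.91 in the knockout, whereas Ccn3 fell in both genotypes.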

How the data were processed

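RNA of 20 libraries (4 groups of 5) was analysed from 4 tables, 1 per comparison. The values are log2 CPM as deposited by the authors, and the submitters' processing notes name the build mm10. The aligner and counter are not given in the sources used here. In each gene and group the deposited lowest and highest of 5 values lay where clipping at the 10th and 90th percentile puts them (0.6 of the extreme and 0.4 of its neighbour), which no label states. Undoing it raised the share of whole reads per library from 45.45% to 92.77% up to 99.91% to 99.99% (within 0.05 reads, up to 500 reads). The unclipped values were used, with the deposited ones as an alternative.

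Each comparison was fitted in its own table with limma 3.58.1 (R 4.3.3, lmFit and eBayes with trend, two-sided, Benjamini-Hochberg over all genes of the table). The interaction used recovered reads of 13688 genes on a joint log2 CPM scale (prior count 2, median-of-ratios scaling) over 20 libraries, with the numbered pair as a random block (duplicateCorrelation, -0.19). Libraries of one number share genotype label and batch, so the labels pair them for OGD, although their deviations correlated at -0.64 to 0.06 in wild type and -0.79 to -0.07 in the knockout. The study's design text calls the 5 libraries of a group biological replicates. Gene positions and exon lengths came from GENCODE M21 (GRCm38), whose length per gene merges the exons of every transcript, and promoters from RefSeq (GRCm38.p6).

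Simulated libraries modelled on OGD in wild type (13748 genes, 200 changed) were used to test the scripts. With unclipped values 93.8% of changes of 1 log2 unit and 100.0% of changes of 2 were called and 3.0% of calls were false. With clipped values 27.5% were false. The simulated libraries were independent, without batches or pairs, with the same dispersion for every gene and far fewer changed genes than were called here. Their clipping followed the rule that was then undone. These rates test the scripts and do not carry over to the measured libraries. The genes, lists and tests were chosen with earlier results of these data known. Named were the 10 genes, Cdr1as, the 4 called genes of each other list with the largest change under OGD in wild type, and the 5 genes most like Ccn1 and Ccn2. Lrp1, Arhgef17, Crim1 and Dock5 were chosen after their values were seen. The same holds for the cell type markers named singly (Gfap, Gja1, Slc1a3, Aqp4, Eomes, Fn1, Acta2, Pdgfrb, Dcn, Col6a1 and Kdr).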

Additional observations from a re-analysis of the deposited data

Results flagged for a closer look

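Of 40 sets of 5 libraries (10 genes in 4 groups), 3 held a library whose gap to its nearest neighbour was large for the range of its group (Dixon's test at 95%), where chance gives about 2, or 1 in 20. Ccn2 was at 1.87 log2 CPM in N_KO replicate 4, against 2.54 to 2.7 in the other N_KO libraries. Amotl2 was at 5.48 in OGD_KO replicate 5, against 6.15 to 6.3 in the others. Lats2 was at 3.4 in the same library, against 4.25 to 4.57. OGD_KO replicate 5 also had the highest share of reads in its top 10 genes within its group, 43.2%.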

How the results depend on the processing

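None of the differences that were called for the 10 genes changed sign under any alternative, and 327 of 340 OGD results of these genes and 499 of 499 knockout and interaction results kept their side of the threshold. The 13 exceptions, all calls that were lost, are given beside Yap1, Tead2, Amotl2 and Ajuba. With the replicate number as a block, the Yap1 call in wild type was lost (adjusted p = 0.066), no other call of the 10 genes changed, and 5681 and 4829 genes were called for OGD in wild type and the knockout. The number of the 10 genes called ranged from 6 to 8 in wild type when 1 library was left out and stayed at 8 in the knockout. Over all genes this range was 5250 to 6635 in wild type and 4908 to 5930 in the knockout. In batch 3 alone 2341 genes and 5 of the 10 were called in the knockout, with 3 libraries per group in place of 5. From the values as deposited 8280 and 8024 genes were called for OGD.

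For the knockout in normoxia 9 genes were called from the values as deposited, 3 at a mean log2 CPM of at least 1, 3 with the replicate block, 2 in batch 3, 11 with batch as a covariate and 3 to 5 with 1 library left out. For the knockout under OGD 12 were called as deposited, 2 with the replicate block, 17 with batch as a covariate and 1 to 7 with 1 library left out. The labels do not pair the genotypes by replicate number: WT and KO libraries of a number differ in batch for 4 of the 5 numbers. The deviations of such libraries correlated at -0.21 to 0.24, and 3 of 5 in normoxia and 2 of 5 under OGD correlated best with their own number. The number was still not without pattern, since replicate 3 had the highest and replicate 5 the lowest median correlation to its own group in all 4 groups. The cause of these changes was not tested. Ajuba, with 8 to 48 reads per library, is the gene most limited by depth.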
